A study of Austrofundulus limnaeus and Nothobranchius furzeri and Aphyosemion australe with 30 samples.

Results

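Chromatin accessibility after 1 month of diapause was compared with that of developing embryos in the South American killifish, *Austrofundulus limnaeus*. All 68977 peaks of the larger consensus table of this species were compared, and none was left out. They lay on 6816 scaffolds of the assembly Austrofundulus_limnaeus-1.0, with a median width of 379 bp and a range of 98 to 3518 bp. Of the 30 ATAC-seq samples of the series, which covers 4 killifish species, 4 libraries entered the comparison itself. These were Dia 1m replicates 2 and 3, from embryos held for 1 month in diapause and checked for the absence of a heartbeat, and Dev replicates 1.5 and 2, from embryos that had skipped diapause and whose label gives a heartbeat faster than 60 per minute. The growth protocol gives a lower limit for Dev. A further 5 libraries of the same table set the spread: 3 Dia 6d libraries, from embryos in diapause for 6 days, and 2 Pre-Dia libraries, from embryos in mid-somitogenesis with a Kupffer's vesicle.

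Every embryo was wild type and untreated. Each library came from about 10 pooled whole embryos that had been dissected, and from about 25000 nuclei, so a peak's value is an average over all cell types of the embryo. Fewer cells of a type and fewer open copies per cell cannot be told apart in such samples. The labels do not say whether replicates came from separate clutches, and p-values measure only the spread between these samples.

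Diapause is a state of suspended development in which embryos of killifish from seasonal ponds outlast the dry season. Cell division nearly stops, the heartbeat slows or ceases, and metabolism falls. ATAC-seq marks open chromatin by the insertions of a transposase, which are dense at active promoters and enhancers, so reads per peak measure how accessible a regulatory region is. No gene name stands beside a peak in the files and the gene table used here places no gene on a scaffold, so peaks are named by number and position. Positions are printed as in the deposited table, whose smallest start is 0.

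The 4 libraries differed in ways that touch every peak. Reads in peaks numbered 8.09 and 8.81 megareads (M) in Dia 1m, against 9.09 and 10.4 M in Dev. The 10 strongest peaks took 6.21 and 7.23% of the normalized reads in Dia 1m, against 4.27 and 3.61% in Dev, and the SD of the log2 values over peaks was 1.30 and 1.26 in Dia 1m and 1.21 and 1.13 in Dev. Both Dia 1m libraries were thus shallower and more unequal over peaks than both Dev libraries, although 2 against 2 libraries cannot go below an exact permutation p of 0.333. Across peaks, which are not independent replicates, log2 values correlated with r = 0.872 between the Dia 1m libraries, 0.880 between the Dev libraries and 0.775 to 0.809 between the groups. Dia 1m replicate 3 stood closer to the 3 Dia 6d libraries (r = 0.891 to 0.924) than to Dia 1m replicate 2. Among the libraries that set the spread, Pre-Dia replicate 1.5 was the shallowest of all 9. It had 2.99 M reads in peaks and a median of 23 reads per peak, against 11.4 M and 91 in Pre-Dia replicate 2. These 2 Pre-Dia libraries correlated less with each other than the libraries within any other group.

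Relative to Dev, more peaks were higher than lower in Dia 1m, on the authors' scaling. Accessibility was higher at 2627 peaks (3.81% of 68977) and lower at 979 (1.42%), together 3606 (5.23%), by limma at a Benjamini-Hochberg adjusted p under 0.05. The log2 difference of the higher peaks had a median of 1.53 and ran from 1.00 to 5.04, and that of the lower peaks had a median of -1.50 and ran from -1.05 to -4.27. The difference reached 2 log2 units at 431 higher peaks and 107 lower peaks. Over all peaks the median difference was 0.01, with quartiles at -0.40 and 0.44. Without its sign the median difference was 0.42, beside a median gap between replicates of 0.40 in Dia 1m and 0.39 in Dev. The first is a difference of means of 2 libraries and the gaps are between single libraries, so the sizes are not directly comparable.

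At the peaks past the threshold the libraries were well apart, which choosing the peaks from the same 4 libraries favours. Both Dia 1m libraries exceeded both Dev libraries at 2625 of the 2627 higher peaks and lay below both at 975 of the 979 lower peaks. Over all peaks such a separation was common, with both Dia 1m libraries above both Dev libraries at 17386 (25.2%) and below at 16015 (23.2%). The split between higher and lower depended on the scaling. With each library scaled to the same total, 1517 peaks were higher and 1856 lower, the share of higher peaks was 45.0% in place of 72.9%, and the median of all peaks moved to -0.19. With quantile normalization the counts were 2376 higher and 1246 lower.

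A group of 2 libraries has no replicates once 1 is left out, so its own spread drops out of the estimate. Its mean then also rests on 1 library. The number of peaks past the threshold changed with the library left out. It was 916 without Dia 1m replicate 2, 2391 without Dia 1m replicate 3, 1316 without Dev replicate 1.5 and 1035 without Dev replicate 2. Without a Pre-Dia library, which enters only the spread, it was 6202 (without replicate 1.5) or 6197 (without replicate 2). In all, 422 peaks were past the threshold in the same direction without each of the 4 compared libraries in turn, 388 of them higher and 34 lower.

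**Figure D1:**
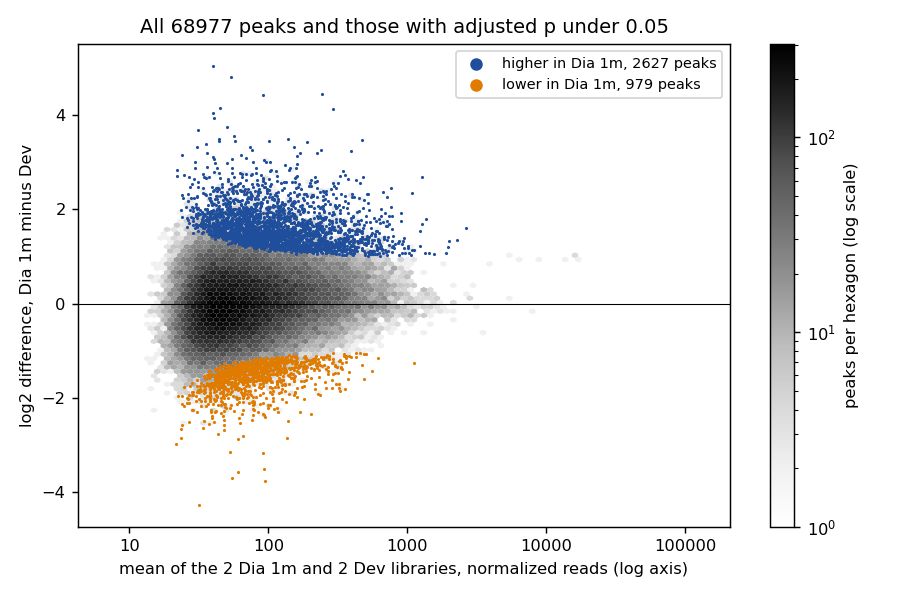
Log2 difference of Dia 1m minus Dev (vertical axis) against the mean of the 2 Dia 1m and 2 Dev libraries in normalized reads (horizontal log axis), with all 68977 peaks as grey hexagons. Blue points are the 2627 peaks higher in Dia 1m and orange points the 979 lower ones, and the blue points reach further to the right than the orange ones.

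Strong peaks were past the threshold mostly upward. Among the 1552 peaks with a mean of 500 normalized reads or more in the 4 libraries, 8.51% were higher and 0.258% lower in Dia 1m. Between 50 and 100 normalized reads, 3.99% of 23307 peaks were higher and 1.80% lower. None of the 564 peaks below 20 passed by limma, 37 of them having an unadjusted p under 0.05, while edgeR called 2 higher and 11 lower and DESeq2 2 higher. Both count tests were run without Dia 1m replicate 3, and the lone Dia 1m library was assumed to vary like the other groups. The median SE there was 0.70 log2 units, against 0.32 in the strongest class. The median difference climbed with the level, at -0.11 between 20 and 50 normalized reads, 0.11 between 100 and 200, and 0.21 at 500 or more. With equal totals these medians were -0.30, -0.09 and 0.01, so the climb remained but began lower. After quantile normalization they were -0.06, -0.02 and -0.02. That scaling gives every library the same distribution of values, which removes most of a shift with level by construction.

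Among peaks with a mean of 50 to 200 normalized reads, narrow peaks were past the threshold mostly upward and the widest mostly downward. Those under 200 bp were higher in Dia 1m at 122 of 1429 (8.54%) and lower at 1, while those of 1000 bp or more were higher at 11 of 1160 (0.948%) and lower at 44 (3.79%). The narrow peaks had medians of 82.5 and 78.6 normalized reads in Dia 1m, against 57.0 and 61.5 in Dev. The wide peaks had medians of 131 and 138 in Dia 1m, against 149 and 160 in Dev. The libraries of the 2 groups did not overlap in either class, above Dev in the narrow and below Dev in the wide one. The wide peaks were also the stronger ones, so width and level were not separated fully. Over all levels the wide peaks did not lean downward on the authors' scaling. Of the 3305 peaks of 1000 bp or more, 116 (3.51%) were higher and 75 (2.27%) lower, with a median log2 difference of 0.02. Of the 7103 under 200 bp, 285 (4.01%) were higher and 15 (0.211%) lower, with a median of 0.25. The median of the wide class was -0.17 after quantile normalization and -0.18 with equal totals. Over all peaks these 2 scalings gave -0.04 and -0.19.

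Among the peaks of 50 to 200 normalized reads the median log2 difference was smaller at each step in width, at 0.42 under 200 bp, 0.32 from 200 bp, 0.14 from 300 bp, -0.03 from 400 bp, -0.11 from 600 bp and -0.20 from 1000 bp. With any one of the 4 libraries left out it stayed between 0.34 and 0.50 under 200 bp and between -0.30 and -0.12 from 1000 bp. Scaling to equal totals shifted the whole series down, to 0.22 in the narrowest and -0.40 in the widest class. In libraries the comparison used only for the spread, the median of Dia 6d minus Pre-Dia in these classes was 0.40 under 200 bp and -0.14 from 1000 bp.

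**Figure D2:**
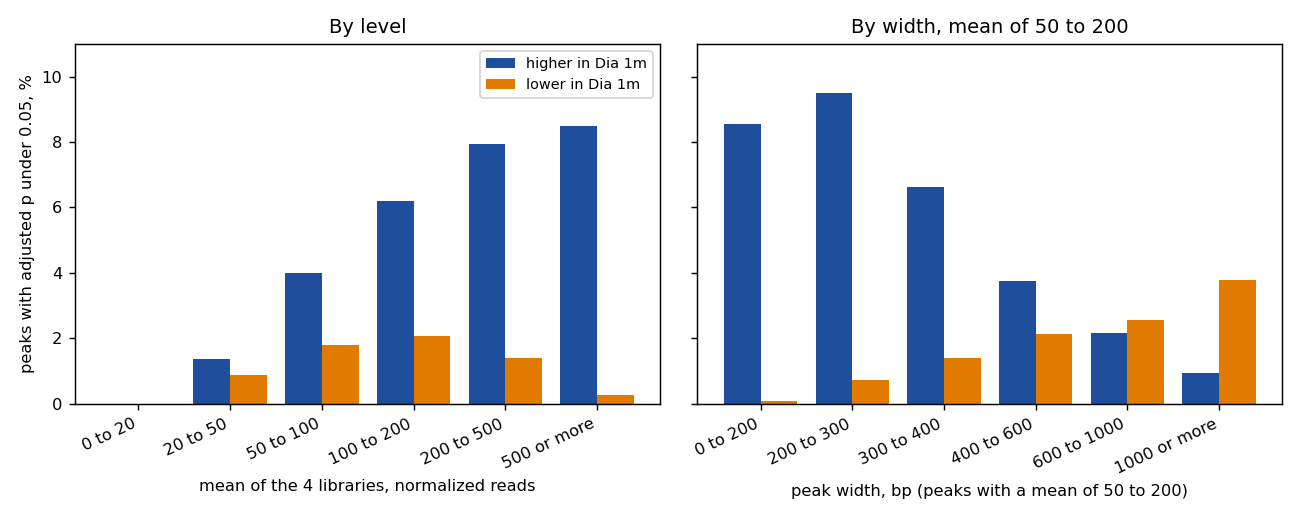
Percent of peaks with an adjusted p under 0.05 (vertical axis), higher in Dia 1m (blue) and lower in Dia 1m (orange), by mean level of the 4 libraries (left) and by peak width among peaks with a mean of 50 to 200 normalized reads (right). The share of higher peaks reaches 8.51% in the strongest class and drops to 0.948% in the widest, where the share of lower peaks is 3.79%.

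The peaks described next were chosen by size of the difference, by level or by adjusted p, so their differences describe the extremes. Those chosen by size or level also had no overlap between the Dia 1m and Dev libraries, so that separation was part of the choice. The largest increase was at peak_65749 (scaffold NW_013958021.1, 1704 to 2009). It held 73.8 and 83.5 normalized reads in Dia 1m, against 0.851 and 2.17 in Dev, which were 1 and 3 reads. The file holds no value below 1 read, so a single read may stand for none. The ratio of pooled reads was 50.4, with an exact 95% interval of 19.3 to 187 that covers counting error only, and the fitted log2 difference was 5.04 ± 0.49 (SE, limma adjusted p = 1.54e-09). A second peak on the same scaffold, peak_65747 (161 to 310), held 67.3 and 84.5 normalized reads in Dia 1m, against 2.55 and 5.07 in Dev (log2 difference 4.04 ± 0.46, limma adjusted p = 5.34e-08). Both sites were nearly closed in Dev and open in both Dia 1m libraries.

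The smallest adjusted p was at peak_54997 (NW_013953588.1, 101856 to 102250), with 484 and 452 normalized reads in Dia 1m, against 17.9 and 23.9 in Dev (log2 difference 4.44 ± 0.38, limma adjusted p = 2.02e-11). At peak_20349 (NW_013952541.1, 1210740 to 1210914) there were 166 and 184 in Dia 1m, against 10.2 and 5.07 in Dev (4.41 ± 0.44, limma adjusted p = 2.00e-09). The groups lay far apart at both peaks. The replicates of each group lay close together except in Dev at peak_20349, whose 2 values were 12 and 7 reads. At peak_29713 (NW_013952664.1, 254530 to 254690) the values were 126 and 83.5 in Dia 1m, against 0.851 and 6.51 in Dev (4.80 ± 0.76, limma adjusted p = 3.33e-05), the lower Dev value being 1 read and the ratio of pooled reads 26.5 (exact 95% interval 14.1 to 56.2, counting error only). At peak_6990 (NW_013952430.1, 310161 to 310283) they were 86.9 and 84.5 in Dia 1m, against 5.11 and 2.90 in Dev (4.15 ± 0.68, limma adjusted p = 6.92e-05). These 6 increases passed the threshold in every alternative tried.

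The other 2 of the 8 largest increases depended on a library. At peak_41051 (NW_013952888.1, 368706 to 369780), Dia 1m had 406 and 566 normalized reads, against 192 and 2.90 in Dev (4.13 ± 0.69, limma adjusted p = 8.44e-05). The Dev libraries disagreed there, and the difference was 1.31 without Dev replicate 2 (adjusted p = 0.237). By DESeq2 the adjusted p was 0.695. At peak_63437 (NW_013955335.1, 281 to 568), Dia 1m had 96.6 and 57.7, against 4.26 and 3.62 in Dev (3.94 ± 0.97, limma adjusted p = 0.00817). Its groups were apart, but the adjusted p was 0.232 without Dia 1m replicate 2, 0.0717 without Dia 1m replicate 3, 0.0542 without Dev replicate 1.5, 0.0664 without Dev replicate 2 and 0.0835 by DESeq2.

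Of the 8 largest decreases, the smallest adjusted p was at peak_9499 (NW_013952447.1, 1947511 to 1947919). It held 11.9 and 10.9 normalized reads in Dia 1m, against 231 and 122 in Dev (log2 difference -3.77 ± 0.45, limma adjusted p = 2.10e-07). At peak_58625 (NW_013954057.1, 66361 to 66746) the values were 7.60 and 36.8 in Dia 1m, against 171 and 152 in Dev (-3.17 ± 0.46, limma adjusted p = 7.58e-06). At peak_26347 (NW_013952615.1, 172571 to 173016), named for its small adjusted p, they were 38.0 and 44.7 in Dia 1m, against 271 and 203 in Dev (-2.48 ± 0.36, limma adjusted p = 7.58e-06). In all 3 the groups did not overlap, and each passed the threshold in every alternative. At peak_18238 (NW_013952520.1, 1335908 to 1336455) both Dia 1m libraries held 11.9, against 265 and 81.1 in Dev (-3.51 ± 0.55, limma adjusted p = 2.57e-05), but the adjusted p was 0.178 by DESeq2, which was run without Dia 1m replicate 3.

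A pair of neighbouring peaks was lower in Dia 1m on scaffold NW_013953167.1. At peak_49003 (185414 to 185816), Dia 1m had 1.09 and 3.98 normalized reads, or 1 and 4 reads, against 57.9 and 64.4 in Dev (log2 difference -4.27 ± 1.25, limma adjusted p = 0.0320), and the ratio of pooled reads was 0.0423 (exact 95% interval 0.0135 to 0.101, counting error only). At peak_49002 (184410 to 185084), Dia 1m had 3.26 and 12.9, against 81.7 and 120 in Dev (-3.70 ± 0.74, limma adjusted p = 0.000961), with a ratio of 0.0810 (0.0456 to 0.134). The groups were apart at both, as the choice of peaks required. The adjusted p of peak_49003 was 0.178 without Dia 1m replicate 2, 0.281 without Dev replicate 1.5, 0.294 without Dev replicate 2 and 0.0626 without Dia 6d replicate 1, and it was 0.0525 with a pseudocount of 0.5 and 0.179 by DESeq2. That of peak_49002 was 0.0678 without Dia 1m replicate 2, 0.0971 without Dev replicate 2 and 0.0875 by DESeq2.

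At 2 of the remaining 3 decreases the Dia 1m libraries were uneven. At peak_64974 (NW_013956703.1, 42 to 495) Dia 1m had 1.09 and 34.8 normalized reads, against 122 and 84.7 in Dev (-3.57 ± 0.95, limma adjusted p = 0.0167). At peak_63967 (NW_013955588.1, 3702 to 4205) Dia 1m had 1.09 and 42.8, against 68.1 and 101 in Dev (-3.14 ± 0.65, limma adjusted p = 0.00140). Each low value was the single read of Dia 1m replicate 2, and without that library the differences were -1.52 (adjusted p = 0.46) and -0.94 (adjusted p = 0.416). The ratios of pooled reads were 0.184 (exact 95% interval 0.126 to 0.261) and 0.265 (0.187 to 0.368), covering counting error only. The adjusted p of peak_64974 was also 0.283 without Dev replicate 1.5 and 0.174 without Dev replicate 2, and that of peak_63967 was 0.108 without Dev replicate 2. At peak_63442 (NW_013955339.1, 6269 to 6634) Dia 1m had 5.43 and 2.98, against 40.0 and 37.6 in Dev (-2.98 ± 0.94, limma adjusted p = 0.0487), with a ratio of 0.107 (0.0450 to 0.220). It lay just inside the threshold and lost it without any one of the 4 libraries, with an adjusted p of 0.105 without Dia 1m replicate 2, 0.145 without Dia 1m replicate 3, 0.293 without Dev replicate 1.5 and 0.258 without Dev replicate 2, and it was 0.0715 without Dia 6d replicate 1 and 0.0717 without Dia 6d replicate 3. It was also lost with a pseudocount of 0.5 (0.0567), a mean of at least 10 normalized reads (0.0506), quantile normalization (0.0514) and by DESeq2 (0.0631).

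**Figure D3:**
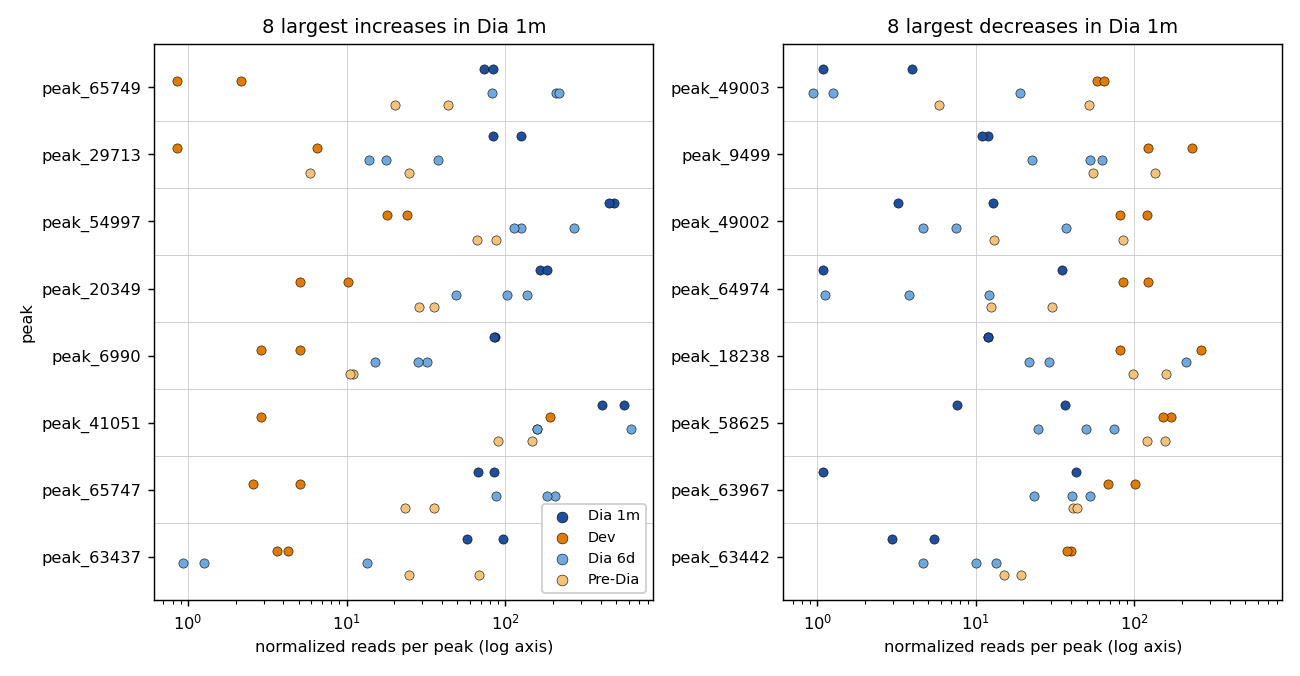
Normalized reads per peak (horizontal log axis) in each of the 9 libraries at the 8 largest increases (left) and 8 largest decreases (right), with 1 point per library in Dia 1m, Dev, Dia 6d and Pre-Dia, given in this order down each row. Dia 1m and Dev points are apart in every row, as the choice of peaks required. At peak_63437 the Dia 6d points lie below both Pre-Dia points.

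Changes at the strongest sites were smaller. Of the peaks past the threshold without overlap, the one with the highest mean was peak_64481 (NW_013956021.1, 5741 to 6627), with 3813 and 4194 normalized reads in Dia 1m, against 1373 and 1254 in Dev (log2 difference 1.61 ± 0.33, limma adjusted p = 0.00112). The next 3, peak_59698, peak_48800 and peak_68637, had log2 differences of 1.34, 1.33 and 1.20. The strongest lower peak was peak_34969 (NW_013952750.1, 116 to 1416), with 694 and 623 in Dia 1m, against 1722 and 1438 in Dev (-1.26 ± 0.31, limma adjusted p = 0.00892). The next 3, peak_61461, peak_50129 and peak_8281, had differences of -1.16, -1.42 and -1.07. Groups were apart at each of these 8 peaks by the rule of choice. Each peak lost the threshold without at least 1 of the 4 compared libraries. Without Dev replicate 2 all 8 lost it, with adjusted p from 0.0522 (peak_64481) to 0.252 (peak_68637). Without Dia 1m replicate 2 all but peak_64481 lost it, peak_34969 being at 0.0858 and peak_61461 at 0.426. Without Dev replicate 1.5 it was lost at peak_59698 (0.102), peak_68637 (0.0796), peak_34969 (0.128), peak_61461 (0.147) and peak_8281 (0.183), and without Dia 1m replicate 3 at peak_48800 (0.0629), peak_68637 (0.15) and peak_34969 (0.0924). Peak_8281 also lost it without Dia 6d replicate 2 (0.0543) and without Dia 6d replicate 3 (0.0689). A constant prior ended the call at 6 of the 8, with adjusted p of 0.0541 at peak_59698, 0.0598 at peak_48800, 0.104 at peak_68637, 0.0615 at peak_34969, 0.138 at peak_61461 and 0.12 at peak_8281. Peak_68637 also lost it with equal totals (0.0501), by edgeR (0.0998) and by DESeq2 (0.116), and peak_34969 by edgeR (0.0941). The 10 strongest peaks of all, on 5 scaffolds, were 0.91 to 1.18 log2 units higher in Dia 1m, and none of them passed by limma (lowest adjusted p 0.0815, 9 with an unadjusted p under 0.05), edgeR or DESeq2.

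Peaks past the threshold were not spread evenly over the assembly. Among 129 scaffolds with at least 100 peaks, the share past the threshold had a median of 4.80% and ran from 0.671 to 25.2%, against 5.23% over all peaks. Scaffold NW_013952552.1 had the highest share, with 30 of 119 peaks higher in Dia 1m and 0 lower. Next came NW_013952419.1, with 39 of 193 higher (20.2%) and 0 lower, and NW_013952831.1, with 20 of 130 lower (15.4%) and 1 higher. At an unadjusted p under 0.05, limma had 2 lower peaks on NW_013952552.1, where edgeR and DESeq2 each called 1, and 0 on NW_013952419.1, where they called 0. These 3 scaffolds were picked by that share, so what follows describes them.

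The difference reached most peaks of these scaffolds, not only those past the threshold. The log2 difference was above 0 at 98 of the 119 peaks of NW_013952552.1, with a median of 0.67, and at 163 of the 193 peaks of NW_013952419.1, with a median of 0.70. It was above 0 at only 13 of the 130 peaks of NW_013952831.1, with a median of -0.91. The median peak of NW_013952831.1 held 49.4 and 46.7 normalized reads in Dia 1m, against 74.5 and 100.2 in Dev, and that of NW_013952419.1 held 71.7 and 69.6 in Dia 1m, against 51.1 and 41.3 in Dev. Dia 1m and Dev did not overlap on either. With any one of the 4 libraries left out, the medians ran from 0.56 to 0.80 on NW_013952552.1, from 0.61 to 0.73 on NW_013952419.1 and from -1.04 to -0.78 on NW_013952831.1. With equal totals they were 0.47, 0.50 and -1.11.

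In the Dia 6d and Pre-Dia libraries, which helped to pick them only through the shared spread, the same scaffolds had smaller medians of Dia 6d minus Pre-Dia. The median was 0.30 on NW_013952552.1, 0.12 on NW_013952419.1 and -0.37 on NW_013952831.1. On NW_013952831.1 the median peak held 52.5, 58.1 and 57.8 normalized reads in the 3 Dia 6d libraries, against 87.7 and 57.5 in Pre-Dia. There, 1 Pre-Dia library lay within the Dia 6d range. On NW_013952419.1 the groups also overlapped, at 65.9, 56.2 and 54.1 in Dia 6d, against 49.3 and 56.9 in Pre-Dia. They did not overlap on NW_013952552.1, at 74.8, 62.7 and 67.9 in Dia 6d, against 54.8 and 58.8 in Pre-Dia.

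**Figure D4:**
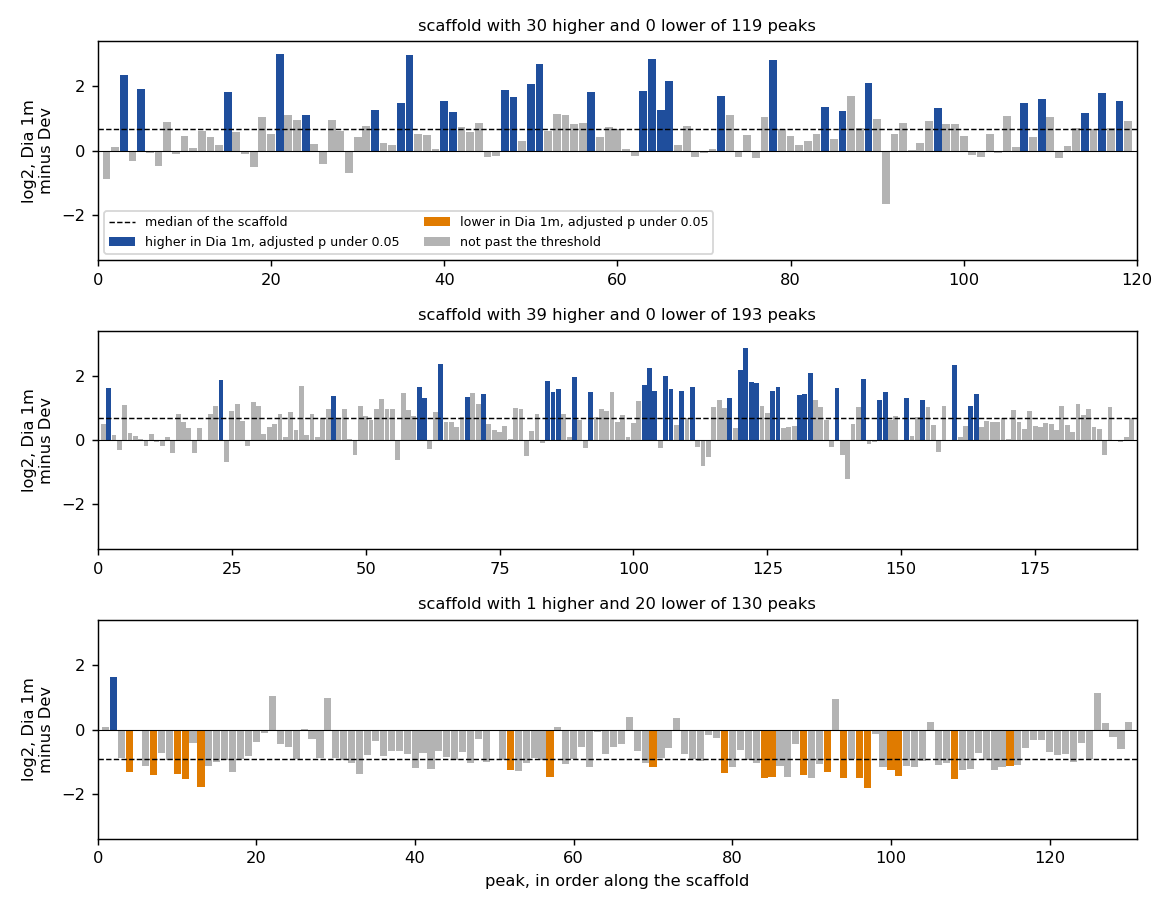
Log2 difference of Dia 1m minus Dev (vertical axis) at every peak, in order along the scaffold (horizontal axis), for the 3 scaffolds of at least 100 peaks with the highest share past the threshold. Blue bars are higher and orange bars lower in Dia 1m at an adjusted p under 0.05, and the dashed lines are the medians of 0.67, 0.70 and -0.91.

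The distance to other peaks past the threshold was counted next. Of the 2627 higher peaks, 381 (14.5%) had another higher peak within 10 kb, centre to centre, and 10 had a lower one. Of all 68977 peaks, 4302 (6.24%) had a higher peak other than themselves within that distance. Of the 979 lower peaks, 208 (21.2%) had another lower peak within 10 kb, and 10 had a higher one, while 1713 of all peaks (2.48%) had a lower peak other than themselves that near. Neighbouring peaks are often close in this table, with 54084 of the 68977 peaks within 10 kb of another. Joined at this distance, the higher peaks formed 23 stretches of 3 or more and the lower peaks 21. The stretches named next were picked for their length after their values were seen.

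The longest stretches of lower peaks held 5, and there were 4 of them, of which the 2 with the shortest span are given. That on NW_013952550.1 (1206071 to 1220179, peak_21000 to peak_21004) had no other peak between, log2 differences of -2.34 to -1.51, and means over its peaks of 74.9 and 77.2 normalized reads in Dia 1m, against 396 and 194 in Dev. Its Dia 6d means of 87.5, 89.3 and 105 and its Pre-Dia means of 108 and 94.1 overlapped, so Dev stood above all the other libraries there. On NW_013953233.1 (63752 to 82115, peak_50107 to peak_50111), the means were 18.9 and 37.2 in Dia 1m, against 82.8 and 87.7 in Dev, and 45.6, 56.8 and 55.1 in Dia 6d, against 61.4 and 73.3 in Pre-Dia. Neither pair of groups overlapped on this stretch. The longest stretches of higher peaks held 4, and there were also 4 of these. On that with the shortest span, on NW_013952413.1 (2827040 to 2837524, peak_3563 to peak_3566), the means were 115 and 151 in Dia 1m, against 54.3 and 49.2 in Dev, and 165, 122 and 114 in Dia 6d, against 58.9 and 52.4 in Pre-Dia. Both diapause stages lay above both development stages in every library there.

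The comparison of Dia 6d with Pre-Dia asked whether the peaks past the threshold moved alike in libraries that had no part in choosing them, apart from a shared estimate of the spread. Of the 2627 peaks higher in Dia 1m, 351 (13.4%) were past the threshold and higher in Dia 6d, against 2377 of all peaks (3.45%), and 5 were lower. Of the 979 peaks lower in Dia 1m, 89 (9.09%) were lower in Dia 6d, against 957 of all peaks (1.39%), and 7 were higher. Seen from the other side, these 351 were 14.8% of the peaks higher in Dia 6d, and these 89 were 9.30% of the peaks lower in Dia 6d. The shares were not compared at a matched level. Pre-Dia replicate 1.5, the shallowest library, was 1 of only 2 Pre-Dia libraries in this comparison. The mean of the 4 libraries had a median of 102 normalized reads at the higher peaks and 77.5 at the lower ones, against 61.4 over all peaks.

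The log2 difference of Dia 6d minus Pre-Dia was above 0 at 77.9% of the peaks higher in Dia 1m, with a median of 0.42, and below 0 at 75.6% of those lower in Dia 1m, with a median of -0.42. Over all peaks it was above 0 at 50.6%, with a median of 0.01. The median higher peak held 161 and 148 normalized reads in Dia 1m, against 52.8 and 47.8 in Dev, and 126, 88.0 and 91.8 in Dia 6d, against 74.0 and 77.8 in Pre-Dia. The median lower peak held 34.7 and 43.8 in Dia 1m, against 123 and 105 in Dev, and 53.6, 59.9 and 60.3 in Dia 6d, against 76.8 and 76.5 in Pre-Dia. Dia 6d and Pre-Dia fell between Dia 1m and Dev at both sets, and the 2 did not overlap. The peaks were chosen for a difference between Dia 1m and Dev, which favours a place between them for all other libraries.

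**Figure D5:**
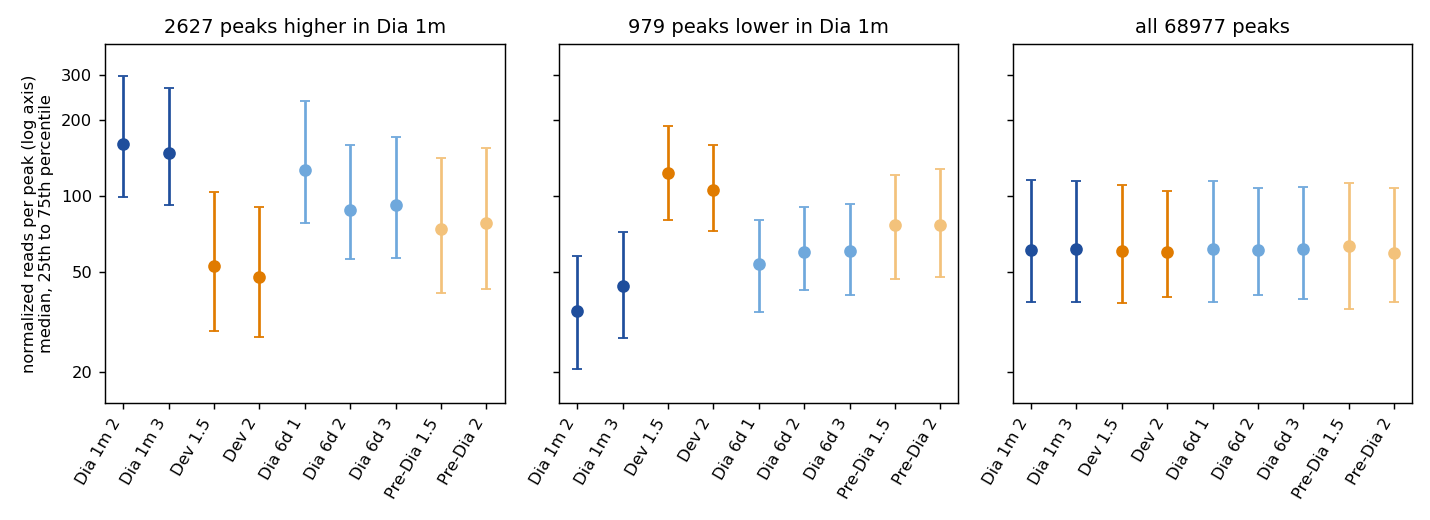
Normalized reads per peak (vertical log axis; points are medians, bars run from the 25th to the 75th percentile over peaks) in each of the 9 libraries, for the 2627 peaks higher in Dia 1m (left), the 979 lower (middle) and all 68977 (right). Higher peaks have medians of 161 and 148 in Dia 1m and 52.8 and 47.8 in Dev. The other libraries lie between, which the choice of peaks favours, and over all peaks the medians are alike.

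Among the named peaks, several moved in both comparisons. At peak_65749, Dia 6d had 82.6, 208 and 218 normalized reads, against 43.9 and 20.3 in Pre-Dia (log2 difference 2.34, limma adjusted p = 0.0012). At peak_65747, Dia 6d had 88.2, 206 and 184, against 35.6 and 23.5 in Pre-Dia (2.33, limma adjusted p = 0.000592). At peak_34969, the strongest lower peak, Dia 6d had 688, 538 and 559, against 1576 and 1606 in Pre-Dia (-1.43, limma adjusted p = 0.00189). Each was apart between groups in the same direction as Dia 1m and Dev. At peak_54997, Dia 6d had 272, 125 and 113, against 87.7 and 66.7 in Pre-Dia, which did not overlap but did not pass (1.03, limma adjusted p = 0.0677).

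The 2 log2 differences were also tested against each other, as the difference of Dia 1m minus Dev and Dia 6d minus Pre-Dia. It passed the threshold at 342 peaks (0.496%) and at 6 of the 25 named peaks, which were chosen for large differences of Dia 1m minus Dev or for their level. Among these 6, the exception in direction was peak_63437, higher in both Dia 1m libraries. Dia 6d had 13.4, 0.937 and 1.26 normalized reads there, against 68.5 and 24.8 in Pre-Dia (-3.41, limma adjusted p = 0.0165). Peak_48800, not among the 6, also had opposite signs, with 1.33 for Dia 1m minus Dev and -0.11 for Dia 6d minus Pre-Dia (limma adjusted p = 0.866).

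Dia 1m itself was set against Dia 6d, to ask how far accessibility differed between the 2 times in diapause. In Dia 1m, 19 peaks (0.0275%) were higher and 14 (0.0203%) lower than in Dia 6d, and 5297 had an unadjusted p under 0.05. Only peak_63437 of the 25 named peaks passed (log2 difference 4.25, limma adjusted p = 0.034). At peak_54997 the difference was 1.57 (limma adjusted p = 0.059) and at peak_65749 it was -0.97 (limma adjusted p = 0.597). This comparison shares the Dia 1m libraries with that against Dev, and a low count does not show that the 2 times are alike.

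A smaller table of the same species, normalized apart and with 17343 peaks, held Dia 1m replicate 1 and Pre-Dia replicate 1, libraries that are in no comparison above. With 1 library each there is no test, and the contrast is with Pre-Dia, not with Dev. At least 1 bp of a peak of this table was shared by 1093 of the 2627 higher peaks, and 1032 of these (94.4%) were higher in Dia 1m replicate 1, with a median log2 difference of 1.20 and median levels of 156 in Dia 1m and 72.1 in Pre-Dia. Of 220 lower peaks that overlapped, 202 (91.8%) were lower, with a median of -1.41 and median levels of 35.3 in Dia 1m and 82.7 in Pre-Dia. Over all 17066 overlapping peaks, 49.6% were higher and the median was -0.01. The smaller table has a peak set of its own and includes Dia 1m replicate 1. It also holds the library of Dev replicate 2, which the main comparison used. A peak open in Dia 1m replicate 1 may have been more likely to enter the set, so overlap and direction may not be independent. The overlap was more frequent among the higher peaks (1093 of 2627) than among all peaks (17066 of 68977).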

How the data were processed

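ATAC-seq reads of pooled whole embryos were trimmed, aligned and reduced to consensus peaks by the authors. The submitters' processing notes name Trim Galore 0.4.1, Bowtie2 2.2.5, SAMtools 1.5, Picard 2.22.1, MACS2 2.1.1.20160309 and deepTools 3.2.1. The deposited values are a signal per peak, namely whole reads divided by 1 factor per library and not by peak width, although the tables are named for RPKM. Here they are called normalized reads. The smallest value of each library is 1 read and no value is 0. Multiples of it were whole within 0.01 reads at 100.0% of peaks, which gave the reads in peaks.

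Differences were fitted on log2(value + 1) with limma 3.58.1 in R 4.3.3 (4 groups, 9 libraries, trended prior, two-sided, Benjamini-Hochberg over 68977 peaks, threshold 0.05, no filter on low values). A log2 difference on this scale understates changes at low values. SE is that of the moderated fit. Alternatives changed the libraries, pseudocount, filter, scaling, prior, replicate block, fold threshold and overlap. Count tests (edgeR 4.0.16 and DESeq2 1.42.0) were run on recovered reads of 8 libraries. Dia 1m replicate 3 was left out of them because its step, close to 1, was not accepted as recovered reads. Its recovered reads were still used for the reads in peaks and the ratios of pooled reads. The lone Dia 1m library was then assumed to vary like the other groups. This choice was made after seeing the data, including a trial of both tests on all 9 libraries. The limma fit was tested on simulated data, where it recovered most large changes and missed many smaller ones, so peaks with small changes may be missed. A first pass mark, for changes of middle size, was missed and was replaced by one for large changes.

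Members, lists and rules were chosen with earlier results of these data known. Named peaks were the 8 largest increases and 8 largest decreases past the threshold without overlap of the 4 libraries, the 4 strongest of each direction, and the 2 with the smallest adjusted p of each direction, 25 in all. Of the columns with values per library in the larger table, 4 were not used. A planned contrast of the Dev column of the smaller table was replaced by Pre-Dia after seeing the data, because that Dev column held the library of Dev replicate 2. The planned gene lists, genomic classes and motif search were not analysed here, since the gene table used places no gene on a scaffold and no genome sequence was used.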

Additional observations from a re-analysis of the deposited data

Results flagged for a closer look

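At 6 of the 25 named peaks, Dia 1m minus Dev and Dia 6d minus Pre-Dia differed from each other by the interaction term of the limma fit. The difference of the log2 differences was 7.35 ± 1.31 (SE, limma adjusted p = 0.00436) at peak_63437, where both Dia 1m libraries lay above both Dev libraries and all 3 Dia 6d libraries lay below both Pre-Dia libraries. It was 4.06 at peak_29713, 3.41 at peak_54997, 2.97 at peak_20349, 2.70 at peak_65749 and -2.75 at peak_9499. Dia 1m minus Dev was further from 0 at each. Dia 6d minus Pre-Dia had the same sign and passed at peak_20349 (1.44, limma adjusted p = 0.0261) and peak_65749 (2.34, limma adjusted p = 0.0012). It did not pass at peak_54997 (limma adjusted p = 0.0677), peak_29713 (0.74, limma adjusted p = 0.574) or peak_9499 (-1.02, limma adjusted p = 0.139). At peak_29713 and peak_9499 the Dia 6d and Pre-Dia libraries overlapped. The peaks were chosen for a large Dia 1m minus Dev, which favours such a result. The groups of 2 or 3 libraries were too small to look for single outlying libraries. Dia 6d minus Pre-Dia also rested in part on Pre-Dia replicate 1.5, the shallowest library.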

How the results depend on the processing

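The 3606 peaks past the threshold became 2078 with a constant prior, and 869 with the replicate block, where 74.6% were higher. Dia 1m and Dev share only number 2, and the deviations of these 2 libraries from their group means correlated at 0.03. With 2 libraries in a group the deviations mirror each other, so this value cannot decide whether the number marks a pairing. Leaving out 1 library gave 916 to 2391 peaks for Dia 1m (62.5 to 78.6% higher), 1035 to 1316 for Dev (76.8 to 90.4%), 6197 to 6202 for Pre-Dia (68.8 to 68.8%) and 2942 to 3196 for Dia 6d (73.3 to 74.6%). The share of higher peaks, 72.9%, was 45.0% with equal totals, 65.6% with quantile normalization, 70.9% with a constant prior, 71.1% with a pseudocount of 5, 69.7% in the 4 libraries alone, 69.1% by edgeR and 66.3% by DESeq2. The number of peaks past the threshold stayed within 1.5 times of 3606 under the pseudocounts, filters, other scalings, the 4-library fit, the added log2 threshold of 1 and both count tests. The planned count tests of all 9 libraries were run once in a trial and taken out, and their results are not given. No named peak changed direction in 20 alternatives, and 9 of 25 passed the threshold in every one of them. In most of these the direction was fixed beforehand, because Dia 1m and Dev did not overlap at any named peak. With the replicate block, 10 of the 25 named peaks fell below the threshold, and they are not marked peak by peak above. The counts of peaks shared with Dia 6d against Pre-Dia and with the smaller table stayed within 1.5 times. Reads per peak limit peaks under 20 normalized reads, of which none passed by limma.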

Other observations

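The Dev column of the smaller table held the same library as Dev replicate 2 of the larger table. At 1033 of 1037 peaks with identical coordinates (99.6%) the recovered reads were equal, and they differed by less than the sampling noise. No other pair of a library from each table had equal reads at more than 1.35% of these peaks. The 2 were counted as 1 sample, and the smaller table's Dev column entered no comparison. Of the 9 libraries of the larger table, Pre-Dia replicate 1 of the smaller table was closest to Pre-Dia replicate 1.5. The chi-square per peak was 2.97 for this pair, against 13.1 with Pre-Dia replicate 2, and a larger value means reads that differ more. Such a value also tends to grow with depth, and Pre-Dia replicate 1.5 was the shallowest of the 9 libraries. Whether Pre-Dia replicates 1 and 1.5 share embryos was not tested.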
